A study of Mus musculus with 2 samples.

Results

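The E-cadherin locus on mouse chromosome 8 holds Cdh1 and its downstream neighbor Tmco7, 2 of the 12745 protein-coding genes that had contacts of RNA polymerase II (RNA Pol II) in either of 2 chromatin interaction libraries. In RNA Pol II ChIA-PET, chromatin carrying RNA Pol II is immunoprecipitated and neighboring DNA ends are ligated through a linker. Each paired-end tag (PET) between 2 peaks counts 1 such ligation, called a contact here. Both genes were selected on measured values of these libraries, namely the contact between them, so their counts are given as a description without a test. Every listed pair of peaks with 1 end (an anchor) within 1 kb of either gene was taken. This gave 21 of 12330 intrachromosomal and 156 of 115937 interchromosomal pairs in control cells, and 9 of 5037 and 45 of 39291 pairs in Ronin knockout cells.

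The cells were mouse embryonic stem cells (ESCs) taken from blastocysts of a cross between CreERT2 and Roninflox/flox animals, and both libraries carried this genotype. The control cells received ethanol for 4 days, and the Ronin knockout cells received tamoxifen for 4 days, which activates the Cre recombinase that removes Ronin (Thap11). The controls therefore carried the floxed allele and CreERT2 but not the tamoxifen, and the effect of tamoxifen and that of Ronin loss cannot be told apart here. Each condition was 1 set of interactions that the authors merged from 2 experiments, so there was no replicate check, and all 95% intervals below cover counting error only. PCR reads without molecular identifiers are not independent molecules, which such intervals do not include.

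E-cadherin is the calcium-dependent adhesion molecule of adherens junctions. Its extracellular domain binds E-cadherin on the neighboring cell, and its tail binds beta-catenin and p120-catenin, which connect it to actin. Mouse ESCs depend on it to grow as compact colonies, and it is lost in many cells that undergo an epithelial-to-mesenchymal transition. Tmco7, now called Tango6 (transport and Golgi organization 6), encodes a transmembrane protein. Ronin is a zinc finger protein of the THAP family that binds a 15-letter motif near the starts of many housekeeping genes.

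In the GENCODE vM1 annotation of mm9, Cdh1 (ENSMUSG00000000303.6) lies on the plus strand at chr8:109127251-109194146, with 16 exons over 66896 bp. Tmco7 (ENSMUSG00000041949.5) follows on the same strand at chr8:109206968-109375339, with 18 exons over 168372 bp. The end of Cdh1 and the start of Tmco7 are 12821 bp apart. The contact between them joined an anchor that began inside Cdh1 and ran past its end to an anchor over the Tmco7 start.

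The promoter of Tmco7 lies in the second of these anchors and is shown because it is the start-site end of the contact. It is the RefSeq sequence of Tango6 (GRCm38.p6, plus strand, chr8:106682818-106683117), 250 bases before to 50 after the gene start. It matches mm9 exactly at 1 place on chromosome 8, chr8:109206718-109207017. Capitals mark the only match on either strand to TGGGANNTG, which are letters 2 to 10 of the Ronin-binding motif in a looser form.
Tmco7 promoter: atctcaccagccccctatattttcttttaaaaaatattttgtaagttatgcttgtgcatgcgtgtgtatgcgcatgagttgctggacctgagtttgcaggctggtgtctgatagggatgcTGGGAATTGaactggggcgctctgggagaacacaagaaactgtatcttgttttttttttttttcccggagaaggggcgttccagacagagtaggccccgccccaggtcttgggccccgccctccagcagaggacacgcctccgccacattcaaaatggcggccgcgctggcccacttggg
This 9-letter string was in 8.96% of 32851 mouse promoters of the same length. The full Ronin-binding motif had no exact match in the Tmco7 promoter and was in 0.673% of all promoters. The closest placement had 3 mismatches to it, and 6.78% of promoters had 3 or fewer. The E-box CAGGTG, the letters bound by Snail and Zeb repressors of Cdh1, was also not in the window and was in 20.2% of promoters. The GC content was 52.7%, which was the median of all promoters. Of the 2 genes, Tmco7 alone matched the promoter table, and the sequence of the Cdh1 promoter is not shown here.

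Windows of 30 bases around the 9-letter string are shown for sites in the 2 anchors of the contact that lie outside both gene models. They are read on the plus strand of mm9, with the string in capitals. The first lies 2380 bp and the second 5077 bp past the end of Cdh1 (chr8:109196515-109196544 and chr8:109199212-109199241), and the last lies 307 bp before the start of Tmco7 (chr8:109206650-109206679).
Cdh1 end, first site: catgactgagcTGGGAGATGttgccgggag
Cdh1 end, second site: agatcttgagaTGGGAAATGgcagtgatag
Tmco7 start, first site: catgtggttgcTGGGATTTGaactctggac
The anchor at the Cdh1 end held 4 matches and the anchor at the Tmco7 start held 3. Such matches were in 95% of control anchors of 8 to 10 kb and in 61.9% of those of 2 to 4 kb. None of the 15 anchors of the locus in the 2 libraries held an exact copy of the full Ronin-binding motif, which 1.08% of all control anchors and 1.34% of all knockout anchors did. The E-box had 7 matches at the Cdh1 end and 2 at the Tmco7 start, and was in 85.2% of all control anchors. GC content was 45.3% and 46.0% in these 2 anchors, beside a median of 44.9% over all control anchors. The observed over expected CpG ratio was 0.269 and 0.490, beside a median of 0.245.

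The link between the end of Cdh1 and the start of Tmco7 had 43 PETs in control cells (95% Poisson interval 31.1 to 57.9) and 0 in Ronin knockout cells (upper limit 3.69). The 95% interval of the ratio of knockout to control reached 8.96%. The knockout library held fewer PETs as a whole, 49.2% of the control number within chromosomes (12140 against 24663) and 40.4% between chromosomes (53136 against 131434). At that share, 21.2 PETs would stand against the 43 of control cells. With equal intrachromosomal totals, the upper limit of the ratio was 18.2%. The authors' adjusted p-value of the pair in control cells was 6.9e-162, and 94.1% of all control and 97.9% of all knockout intrachromosomal pairs had one under 0.05. This p-value concerns 1 library and does not compare the conditions.

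The 2 anchors were present in both libraries with nearly the same bounds. At the Cdh1 end, the control anchor was chr8:109191187-109200235 (9049 bp), of which 2960 bp lay in Cdh1 over its last exons and 6089 bp past the gene. The knockout anchor, chr8:109191215-109199902, covered 96.0% of it. At the Tmco7 start, the control anchor was chr8:109205519-109208653 (3135 bp), from 1449 bp before to 1685 bp after the start, and the knockout anchor, chr8:109205518-109208653, covered 100% of it. The anchors were separated by 5283 bp in control and 5615 bp in knockout cells, and their distance in the control table was 11.4 kb. No other pair joined sequence within 20 kb of the gap in either library. The longest stretch identical between the 2 anchors was 22 bp.

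Other contacts of the same anchors were still counted in knockout cells. Without the link, the anchor at the Cdh1 end had 14 control and 9 knockout PETs, the latter being 64.3% of control (24.5 to 159). The anchor at the Tmco7 start had 5 PETs in each library, 100% of control (23.0 to 435). These intervals include both the 40.4% of the whole interchromosomal library and equal counts, so a change in these other contacts was not detectable at this depth. The listed PETs of both anchors added up to the deposited count per anchor in both libraries, 57 and 9 at the Cdh1 end and 48 and 5 at the Tmco7 start. The knockout anchors are thus fully accounted for by pairs other than the link. Per kb of anchor, control cells had 6.30 PETs at the Cdh1 end and 15.3 at the Tmco7 start, and knockout cells had 1.04 and 1.59.

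**Figure D1:**
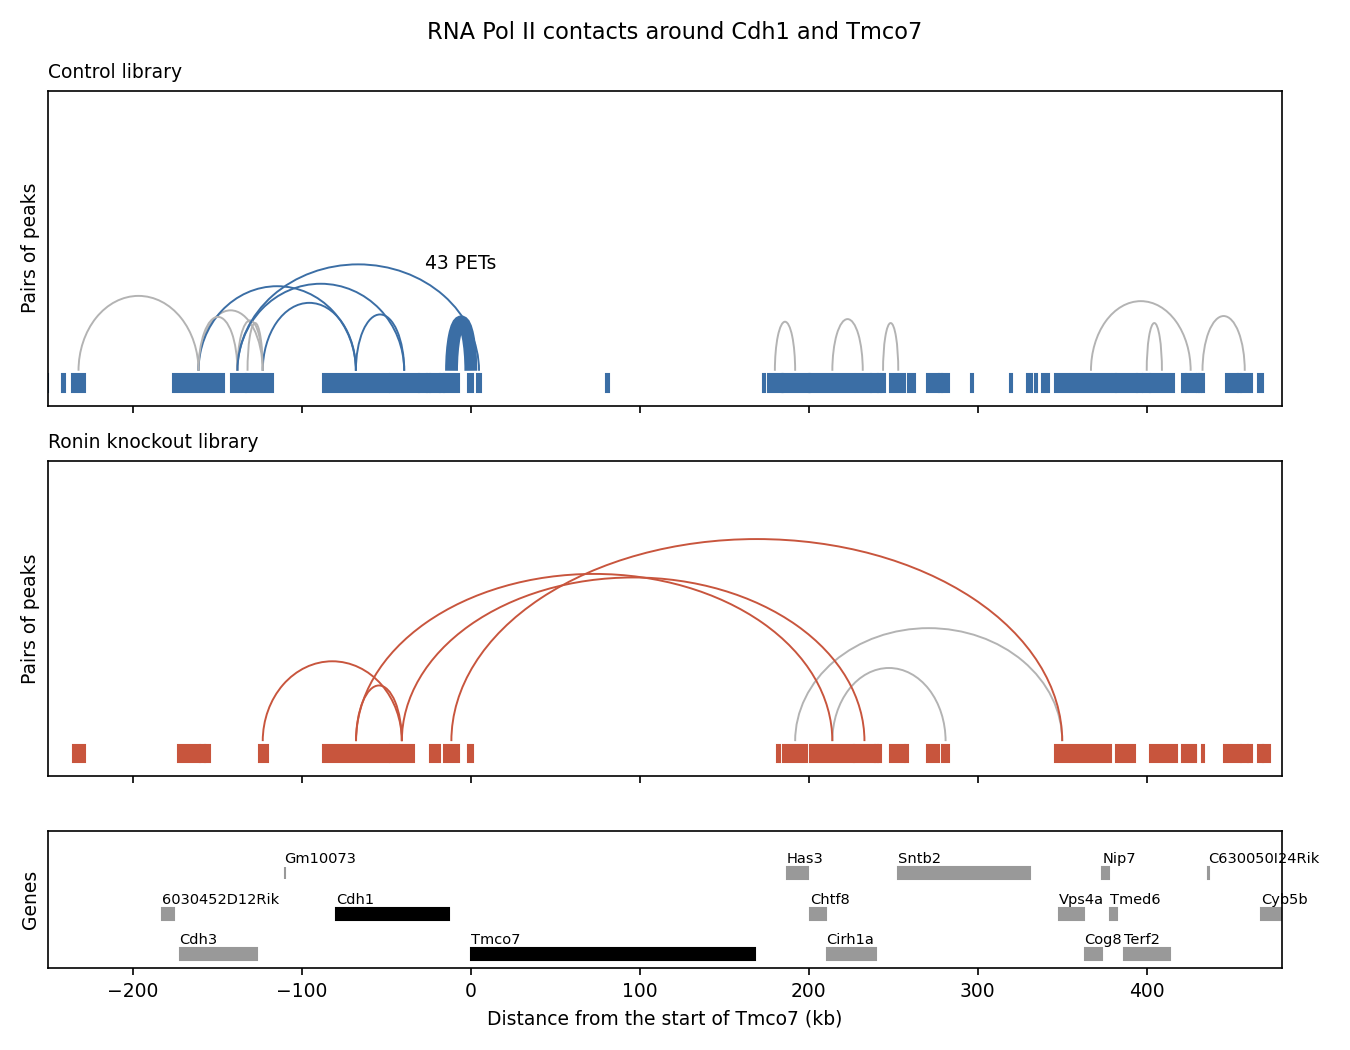
Pairs of peaks with both ends within 500 kb of the gap between Cdh1 and Tmco7, drawn as arcs over the distance in kb from the start of Tmco7, for the control (upper) and Ronin knockout (middle) libraries, above the protein-coding genes. Boxes are anchors, colored arcs touch an anchor of Cdh1 or Tmco7, grey arcs do not, arc height grows with distance and line width with PETs: the 43-PET link is in the control library and not in the knockout library, and the other arcs are 1 PET each.

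The Cdh1 anchors are named here after the promoter, the body and the end of the gene. The promoter anchor was the widest, chr8:109119550-109158596 in control cells (39047 bp), and began 7701 bp before the gene start. Of its width, 31346 bp lay inside Cdh1, so its PETs cannot be assigned to the promoter alone. It had 125 listed PETs in control cells (3.20 per kb), 13 within chromosome 8 and 112 to other chromosomes. In knockout cells, chr8:109119806-109158527 had 36 (0.930 per kb), 5 and 31. The interchromosomal count in knockout cells was 27.7% of control (18 to 41.5), and 68.5% after scaling to equal interchromosomal totals (44.4 to 103). The deposited counts of this anchor were slightly higher than the listed PETs, 127 and 42.

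The second Cdh1 anchor, chr8:109159090-109176171, lay within the gene. It had 21 control and 5 knockout PETs, of which 3 and 3 were intrachromosomal and 18 and 2 interchromosomal. Another 4 short anchors in the Cdh1 body had 1 to 4 PETs each in control cells, and 1 of them was found in knockout cells with 1 PET. Tmco7 had 2 further anchors in its body in control cells, with 3 PETs and 1 PET, and neither was listed in knockout cells. In all, the locus had 10 anchors in control and 5 in knockout cells, and all 5 overlapped a control anchor. The nearest anchor that the 1-kb limit left out was 4.20 kb past the end of Tmco7 in control cells, with 1 PET. On the Cdh1 side, the nearest was 37.1 kb away, with 14 PETs.

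**Figure D2:**
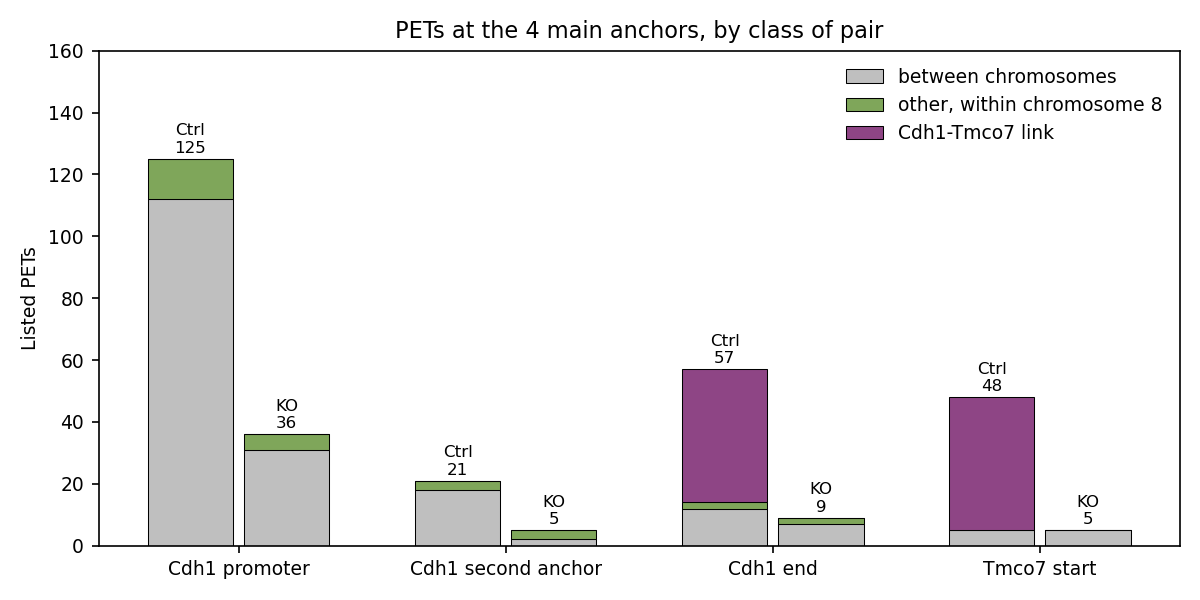
Listed PETs (vertical axis) at the 4 anchors of the locus with the most PETs, in the control (Ctrl) and Ronin knockout (KO) library, split by class of pair, with the total above each bar. The link made up 43 of 57 and 43 of 48 control PETs at the Cdh1 end and the Tmco7 start, and the promoter anchor had mostly interchromosomal PETs in both libraries.

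Summed over its anchors, Cdh1 had 63 intrachromosomal PETs in control (48.4 to 80.6) and 9 in knockout cells (4.12 to 17.1). The knockout count was 14.3% of control (6.25 to 28.9), and 29.0% after scaling to equal totals (12.7 to 58.7). The link carried most of this difference. Without it, Cdh1 had 20 and 9 PETs, or 45.0% (18 to 103), and the scaled value was 91.4% (36.7 to 210). For comparison, 65.5% of the 1740 protein-coding genes with at least 10 intrachromosomal PETs over both libraries had at most 50% of their control PETs in knockout cells, and 22.5% did after scaling. The median gene among them kept 41.2%. With the link, Cdh1 fell in this lower group both unscaled and scaled. Without the link, its unscaled 45.0% was still at most 50%, while its scaled 91.4% was not, and the interval of the scaled value included 100%.

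Tmco7 had 44 intrachromosomal PETs in control cells (32 to 59.1), of which 43 were the link, and 0 in knockout cells, with an upper limit of 8.75% of control, or 17.8% after scaling. The remaining control PET joined its second anchor, chr8:109210994-109212892, to Cdh3 over 143 kb. Between chromosomes, Tmco7 had 8 control and 5 knockout PETs (62.5%, 16.1 to 217), so no difference was detectable. Cdh1 had 149 interchromosomal PETs in control (126 to 175) and 41 in knockout cells (29.4 to 55.6), which was 27.5% of control (19.0 to 39.1) and 68.1% after scaling (46.9 to 96.7). The scale came from PET totals, 131434 PETs in 115937 pairs in control and 53136 PETs in 39291 pairs in knockout cells. At Cdh1 these PETs were in 148 and 40 pairs, nearly all of 1 PET. Scaling to numbers of pairs was not done, and the 68.1% and its interval depend on this choice.

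The 2 genes stood at different places among all genes, with counts not adjusted for anchor width. By intrachromosomal PETs in control cells, Cdh1 was at rank 69 and Tmco7 at rank 85 of 8774 genes, whose median was 3. In knockout cells, Cdh1 was at rank 246 of 6383 genes with a median of 2, and Tmco7 had none. By interchromosomal PETs, Cdh1 was at rank 428 and Tmco7 at rank 7805 of 12390 genes in control cells (median 14), and at ranks 727 and 6177 of 11147 in knockout cells (median 7). Both intrachromosomal control ranks include the link for which the locus was selected. Without it, Cdh1 had 20 PETs and was at rank 262 of 8773 genes, and Tmco7 had 1 PET, the lowest count among genes with any.

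The link was at rank 7 of 1944 control pairs under 50 kb, whose median was 1 PET, and at rank 61 of all 12330 intrachromosomal pairs. There were 29 control pairs under 50 kb with at least 10 PETs, and both anchors of 26 of them were listed in knockout cells. Of these 26, 3 had 0 PETs in knockout cells, or 11.5%, and the link, which was selected for this, was 1 of the 3. The other 25 pairs kept 0% to 121% of their control PETs, with a median of 54.3%. The 6 with more control PETs than the link kept 54.3% to 77.3%. Examples were a pair within Mid1, an E3 ubiquitin ligase that binds microtubules (283 PETs in control and 169 in knockout cells), and a pair between the anchor of Ppp1r10, a regulatory subunit of protein phosphatase 1, and that of Abcf1, an ATP-binding protein of translation (105 and 61). All 6 joined anchors with an identical stretch of 133 to 287 bp, beside the 22 bp of the link, and the part of mapping between similar copies in their counts was not tested. A split of the 25 pairs by this stretch was made after their values were seen. The 16 with at least 100 bp kept a median of 58.9% and 1 of them had 0 PETs, and the 9 with less kept a median of 38.5% and 1 of them had 0. The latter had at most 41 control PETs, fewer than the link.

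The 5 pairs under 50 kb whose counts were most like those of the link, by Euclidean distance of the square roots of the PETs over the 2 libraries, are named next. Their 0 PETs in knockout cells follow from this choice, since the knockout count is part of the distance. The nearest joined a peak with no protein-coding gene to Hvcn1, which encodes the voltage-gated proton channel, over 16.2 kb, with 34 PETs in control cells and both anchors listed in knockout cells. A pair between Mreg (melanoregulin) and Pecr (a peroxisomal enoyl-CoA reductase) over 36.2 kb had 20, again with both anchors in knockout cells. The other 3 had 25, 20 and 18 control PETs, lay at no protein-coding gene, and lacked 1 or both anchors in knockout cells. Short pairs with PETs in the knockout library alone also existed. Those with the most, 58 and 50 knockout PETs on chromosome 9, lacked 1 anchor in control cells. Another pair had both anchors listed in control cells, with 16 PETs in knockout and 0 in control cells. It joined the anchor of the tight junction genes Cldn6 and Cldn9, which also held Hcfc1r1, Thoc6 and Tnfrsf12a, to a peak 15.4 kb away. Whether 1 or both of the merged experiments gave the PETs of any such pair could not be told apart.

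**Figure D3:**
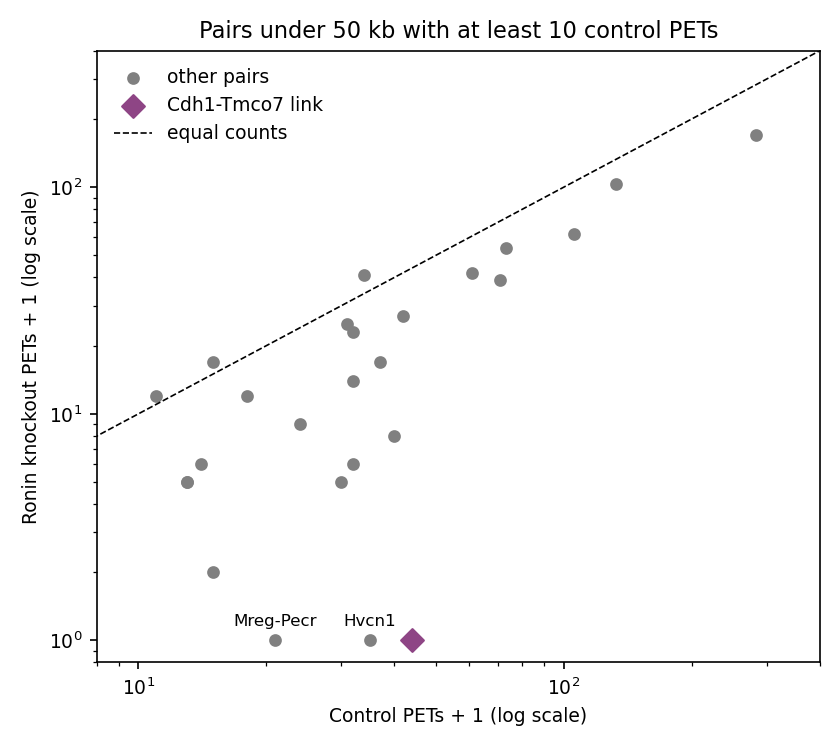
PETs in the control (horizontal) and Ronin knockout library (vertical), each plus 1 on a log scale, for the 26 control pairs under 50 kb with at least 10 control PETs whose anchors were both listed in knockout cells. The Cdh1-Tmco7 link (diamond, 43 and 0) lies on the floor with 2 other pairs, Hvcn1 and Mreg-Pecr, and the other 23 pairs had PETs in both libraries.

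All other intrachromosomal contacts of the locus were single or double PETs. Of the 21 control pairs, 19 had 1 PET, 1 had 2 PETs and 1 was the link; the 2-PET pair joined the Cdh1 promoter anchor to a peak without a gene 90.2 Mb away. The 9 knockout pairs had 1 PET each. The authors' adjusted p-value was under 0.05 for 18 of 21 control and all 9 knockout pairs, beside the 94.1% and 97.9% of all pairs. The paper took pairs with 3 independent PETs as high-confidence interactions. At a minimum of 3 PETs, the link was the only pair of the locus left in either library. Counting error alone is large at 1 PET, so the partners below are listed as observed and not as gained or lost.

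Close to the locus, control contacts went toward Cdh3, which encodes P-cadherin and lies before Cdh1. The Cdh1 promoter anchor had 1 PET with each of 2 anchors at Cdh3, over 93.1 kb and 55.4 kb, and the second Cdh1 anchor had 1 PET with another Cdh3 anchor over 98.3 kb. Within Cdh1, the promoter and second anchors were joined by 1 PET in control (28.6 kb) and 1 in knockout cells (27.1 kb). In knockout cells, the second Cdh1 anchor had 1 PET with Cdh3 over 82.0 kb. On the other side, beyond Tmco7, knockout cells had 1 PET each from the Cdh1 promoter anchor to Chtf8 and Cirh1a (282 kb), from the second Cdh1 anchor to Cirh1a (274 kb), and from the Cdh1 end to Vps4a (361 kb). Chtf8 is a subunit of an alternative clamp loader, Cirh1a a ribosome biogenesis factor, and Vps4a the ATPase that disassembles ESCRT-III. Among contacts within 500 kb, 4 of 6 control pairs of the locus reached upstream of Cdh1 and 0 reached downstream of Tmco7, while 1 of 5 knockout pairs reached upstream and 3 downstream. This depended on the limit: under 1 Mb, 6 of 8 control pairs reached upstream and 0 downstream, and knockout cells had 3 upstream and 3 downstream of 7.

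Farther along chromosome 8, the Cdh1 promoter anchor had 1 control PET with the anchor of Thap11, the gene of Ronin itself, together with Nutf2, Cenpt and Tsnaxip1 (754 kb, adjusted p-value of the authors 0.0472), and none in knockout cells. Its contact with the anchor of Ctcf, the insulator-binding protein, and of Acd and Pard6a had 1 PET in control (950 kb) and 1 in knockout cells (949 kb). The other control partners included Klf2, a pluripotency transcription factor (34.3 Mb), Smarca5, the ISWI chromatin remodeling ATPase (25.9 Mb), Ankrd11 (16.4 Mb) and Stox2 (60.7 Mb), with 1 PET each. Tnpo2, a nuclear import receptor, was at a partner anchor in both libraries, with Fbxw9 in control and Asna1 in knockout cells (21.6 Mb in both), but these were different anchors. Pla2g15, a lysosomal phospholipase, was joined to the Cdh1 end in knockout cells alone (520 kb). Of the 21 control pairs, 2 were also listed in knockout cells, the one within Cdh1 and the one with Ctcf. A listed pair requires both anchors to be called in that library, and 18 of the 21 control partner anchors were found in knockout cells.

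The interchromosomal partners were many and nearly all had a single PET. The paper left such pairs out of its later analyses of Ronin ChIA-PET, because more noise has been reported for them. The 156 control pairs reached 19 chromosomes, 155 of them with 1 PET, and 144 had a protein-coding gene at the partner anchor. The 45 knockout pairs reached 17 chromosomes, 44 of them with 1 PET, and 43 had a gene. The pair with 2 PETs in control cells joined the Cdh1 promoter anchor to Padi6 and Rcc2, the latter a regulator of chromosome condensation, and the one in knockout cells joined it to Calm2, a calmodulin gene. Control partners in genome order began with Rpe, Capn10, Lemd1, Mdm4, Ipo9, Fcgr3, Hnrnpu, Efcab2 and Hspa14, and knockout partners with Clk1, Inpp5d, Asb1, Kif21b, Strbp, Nop56 and Pcna. Of the 156 control pairs, 1 was also listed in knockout cells, and its partner anchor held Polr2a, which encodes the largest subunit of RNA Pol II. This pair was named after its values were seen. The partner anchor itself was found in knockout cells for 132 of the 156.

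Partner anchors were among the busier anchors of each library. The median deposited count of the interchromosomal partner anchors was 23.5 in control and 20 in knockout cells, beside medians of 3 and 2 over all anchors. Anchors with many PETs enter more pairs by construction, so this is a description of the partners and not of Cdh1. The Tmco7 start had partner anchors of deposited counts from 2 to 149 in control and from 1 to 72 in knockout cells. In control cells it had 1 PET each with Mdm4, a p53 inhibitor, and with anchors at Tcp11, Rbm4b, Hax1 and Esam. In knockout cells it had 1 PET each with Rps12, a ribosomal protein, with Npm1, the nucleolar protein nucleophosmin, and with Kif21b, Rbm26 and Strbp. No partner was shared, and with 5 PETs in each library the partners could not be compared further. The Cdh1 end likewise had 12 control and 7 knockout interchromosomal partners with 1 PET each, given here in genome order with 1 gene per anchor. In control cells these were Efcab2, Lhfp, Usp53, Cenpa, U2af2, Rps19, Cul5, Rplp1, Oxsr1, Rpl27, Socs4 and Bad. In knockout cells they were Pcna, Rps20, Zfp568, Atad5, Sp4, Bmpr1a and Jam2.

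The genes around the locus had few intrachromosomal PETs in either library. Of 18 flanking protein-coding genes with a start within 500 kb of the gap, 14 had any, 13 of them fewer in knockout cells and 0 more. Over all protein-coding genes with PETs, 73.8% had fewer in knockout cells, 10.1% equal numbers and 16.1% more. Cdh3 had 13 control and 2 knockout PETs, and 6030452D12Rik, the gene before it, had 8 and 0. The control PETs of 6030452D12Rik came from an anchor shared with Cdh3, at -176 to -146 kb from the Tmco7 start. The knockout anchor there, at -173 to -160 kb with 10 listed PETs, lay outside the 1-kb limit of 6030452D12Rik. Its 0, which is among the 13 lower counts, thus depends on that limit. Cirh1a had 10 and 7 and Chtf8 had 7 and 6. Terf2, which encodes a telomere-binding protein of shelterin, had 4 and 0, and Prmt7, an arginine methyltransferase, had 6 and 2. Slc7a6os had 5 and 2 and Vps4a had 5 and 3. Cog8, Nip7 and Tmed6, whose counts are not independent because neighbors share anchors, had 3 and 1 each, Sntb2 had 2 and 1, Cyb5b had 1 and 0, and Has3, a hyaluronan synthase, had 1 in each library. Smpd3, Zfp90, Gm10073 and C630050I24Rik had none.

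**Figure D4:**
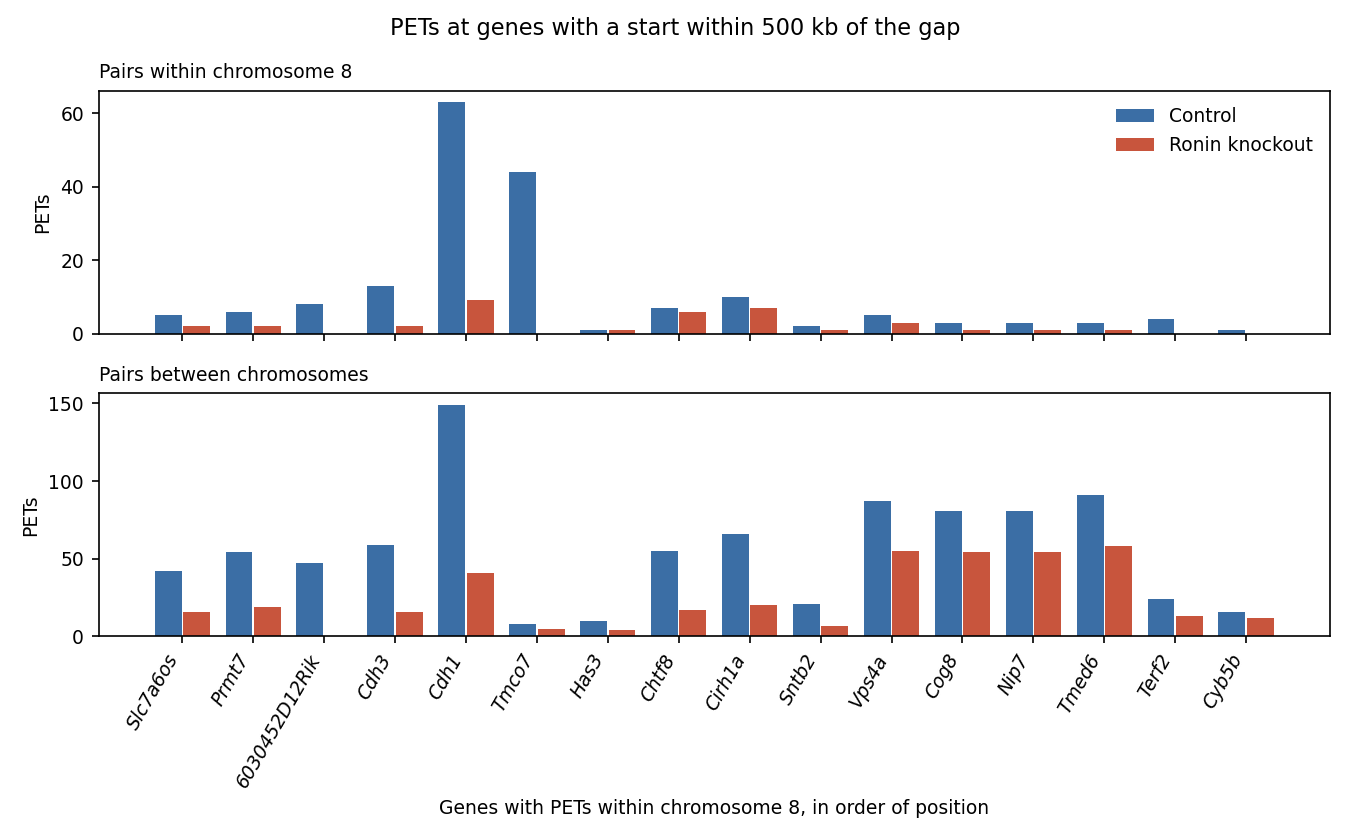
PETs (vertical axes) within chromosome 8 (upper) and between chromosomes (lower) at Cdh1, Tmco7 and the flanking genes with PETs within chromosome 8, in order of position, in the control and Ronin knockout library. Within chromosome 8, Cdh1 (63 and 9) and Tmco7 (44 and 0) stand above their neighbors, all at 13 or less, in control cells. Both control counts include the 43-PET link for which the locus was selected. Without it, Cdh1 has 20 and 9 PETs and Tmco7 has 1 and 0.

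Between chromosomes, Tmco7 had fewer PETs in control cells than any flanking gene shown but Cdh1 had more. Cdh3 had 59 control and 16 knockout PETs, and 6030452D12Rik had 47 and 0, where the 0 again depends on the 1-kb limit. Vps4a had 87 and 55, and Cirh1a had 66 and 20. All of these counts are per gene with shared anchors, not per kb.

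The other genes of cell adhesion were taken from 4 lists of 45 genes based on textbook knowledge. Among the 29 genes with intrachromosomal PETs, 20 had fewer in knockout cells (69.0%), 1 an equal number (3.45%) and 8 more (27.6%), beside the 73.8%, 10.1% and 16.1% of all genes. Without Cdh1, which was selected for its link, 19 of 28 genes had fewer (67.9%), and the lists had 147 control and 81 knockout PETs. The median list gene with control PETs kept 40.0% with Cdh1 included and 42.2% without it, beside 27.3% over all genes with control PETs. These medians are not matched for counts, and the median control count over all such genes was 3 PETs. Among genes with at least 10 PETs over both libraries, the median was 41.2%. Summed PETs gave 42.9% for the lists, 55.1% without Cdh1, and 46.0% over all genes.

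Of the cadherins, 3 of 7 had PETs and all 3 had fewer in knockout cells. Besides Cdh1, these were Cdh3, with 13 and 2, and Cdh24, with 3 and 2, and Cdh2, Cdh4, Cdh5 and Cdh11 had none. The direction at Cdh1 follows from its selection. Cdh3 is not independent of it, since some of its PETs join anchors of Cdh1 or Tmco7. Of the catenins and other adherens junction genes, 10 of 11 with PETs had fewer. Ctnna1, which encodes alpha-catenin, had 10 control and 4 knockout PETs, and Jup, which encodes plakoglobin, had 11 and 2. Ctnnb1, the gene of beta-catenin, had 5 and 2. Ctnnd1, the gene of p120-catenin, was the exception with 4 and 6. The nectin gene Pvrl2 had 14 and 8, and the actin cross-linker genes Actn1 and Actn4 had 7 and 4 and 9 and 3. Summed over this list, the counts were 71 and 33, or 46.5%, beside the 49.2% of the whole library. Single genes lay on both sides of that share, and none was tested.

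Of the tight junction and desmosome genes, 4 of 9 with PETs had fewer in knockout cells and 5 had more. The claudin genes Cldn3 and Cldn4 had 11 and 1 and 16 and 4. Cldn6 had 3 control and 17 knockout PETs, 16 of them in the 1 short pair described above. Among repressors and regulators of E-cadherin, 6 of 12 genes had PETs, 3 with fewer, 1 with an equal number and 2 with more in knockout cells. Esrrb, a pluripotency nuclear receptor, had 9 and 4.

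**Figure D5:**
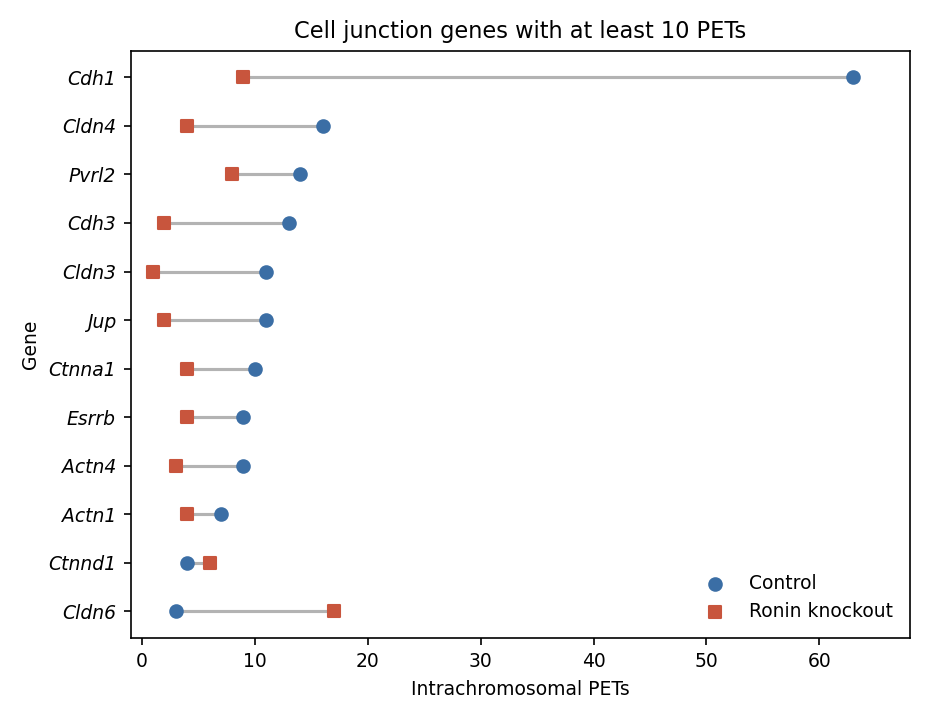
Intrachromosomal PETs (horizontal axis) in the control (circle) and Ronin knockout library (square) for the genes of the 4 cell adhesion lists with at least 10 PETs over both libraries. Cdh1 (63 and 9) includes the 43-PET link for which it was selected and has 20 and 9 without it, and Ctnnd1 and Cldn6 are the 2 genes shown with more PETs in the knockout library.

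The contact tables hold no RNA or protein values, so neither the loss of Ronin protein nor the expression of Cdh1 and Tmco7 was checked with them, nor were markers of ESCs. The deposited count per anchor is the number of linking PETs at 95.2% of control and 95.3% of knockout anchors and was not read as RNA Pol II occupancy. Fewer cells, less bound RNA Pol II and fewer contacts per cell cannot be told apart from these counts. The paper reports unchanged RNA Pol II occupancy over all genes after the knockout, and this was not tested here for the locus.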

How the data were processed

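RNA Pol II ChIA-PET of control and Ronin knockout ESCs was analysed as 1 merged set per condition. Per the labels' processing notes and the study's methods, the authors trimmed linkers with cutadapt, mapped to mm9 with Bowtie 1.1.1, called peaks with MACS 1.4.2 (p-value 1e-09), collapsed duplicates and removed intrachromosomal PETs under 4 kb. The deposited values are raw PET counts per pair and per peak, the distance between peaks (a signed score in bp), and for each pair a p-value, also as adjusted by Benjamini-Hochberg. There were 27757 control anchors (median 3278 bp) and 17539 knockout anchors (median 4739 bp), and no anchor ran past an NCBIM37 (mm9) chromosome end.

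An anchor was assigned to each protein-coding GENCODE vM1 gene within 1 kb, and each pair counted once per gene. Anchors matched between libraries at an overlap of 1 bp. Counts have exact Poisson and ratios exact conditional binomial 95% intervals. Gene assignment was tested on simulated anchors with planted answers, and the ratio intervals on simulated counts with known ratios. Reading of coordinates was tested on a made pair. The counting of pairs and the matching of anchors between libraries were not tested in this way. Python 3.11.15, numpy 2.4.6, pandas 2.3.3, scipy 1.17.1 and matplotlib 3.10.9 were used.

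The members, lists and rules were chosen with earlier results of these data known. Named were both genes, their partners (at most 20 genes per library and class, by PETs and then genome order), genes with a start within 500 kb, list genes with at least 10 PETs, and the 5 pairs under 50 kb most like the link. Partners of the Cdh1 end and Tmco7 start beyond these 20, Polr2a, Mid1, Ppp1r10, Abcf1, Cldn9, Cdh24 and Ctnnb1 were named after their values were seen, as were cadherins without PETs. Alternatives changed the gene window, the minimum of PETs, the scaling and the link's inclusion, and 1 (both ends within 20 kb of the gap) was added after seeing the data. Depth of a merged set limits each contact to the intervals given.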

Additional observations from a re-analysis of the deposited data

How the results depend on the processing

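The link remained at 43 PETs in control and 0 in knockout cells with a gene window of 5 kb, with a minimum of 2 or 3 PETs per pair, and with any pair with both ends within 20 kb of the gap, the alternative chosen after seeing the data. Of the recomputed values, 53 moved by less than their counting interval and 19 by more. With anchors within 2.5 kb of a gene start only, the control link fell to 0 by construction, since the anchor at the Cdh1 end is not at a start, Cdh1 kept 38.5% of intrachromosomal PETs (13 and 5), and control interchromosomal partners were 116. With at least 2 PETs per pair, Cdh1 kept 0% within (45 and 0) and 100% between chromosomes (2 and 2), and control partners were 2 within and 1 between chromosomes, beside 0 and 1 in knockout cells. With at least 3, Cdh1 kept 0% (43 and 0) and partners were 1 and 0 in control and 0 and 0 in knockout cells. Without the link, Cdh1 kept 45.0%. Scaled to intrachromosomal totals, Cdh1 kept 29.0% and the control link was 21.2 PETs; scaled to interchromosomal totals, Cdh1 kept 35.3% within and 68.1% between chromosomes. Interchromosomal Tmco7 gave no value with a minimum of 2 or 3 PETs, nor Cdh1 with 3, since no control PETs were left, and another annotation of the build was not run. No paired analysis was possible because each condition was 1 merged set, which also left no replicate to leave out. Whether both experiments contributed to the link was therefore not tested, and 1-PET pairs are at the limit of this depth.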
